A study of Mus musculus with 24 samples.

Results

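Ischemic preconditioning (PreC) was compared with ischemia-reperfusion alone (IR) in the ischemic region of hearts of C57BL/6 mice, on the 6 arrays, of 24 in all, that carried PreC RNA in channel 2. In every IR and conditioned heart a coronary artery of the anesthetized mouse was closed for 40 min and then reopened for 60 min. In PreC the artery was also closed and reopened 3 times, for 1 min each way, 10 min ahead of the long closure. Channel 1 of every array held IR ischemic-region RNA. The 6 arrays were 3 replicate numbers, each hybridised in both dye orientations, so n = 3. The other groups, with 6 arrays each, had the same cycles 1 min (PostC) or 30 min (Post30) after reperfusion began, or held RNA from muscle outside the ischemic region, again of IR hearts (NonIschemic). No group was spared the occlusion, so none gives the level of an uninjured heart. Whether a replicate number stands for 1 heart or a pool is not in the labels. The p-values therefore describe the spread between these preparations, which may be technical.

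In preconditioning, brief sublethal occlusions make heart muscle more resistant to a later long one, and smaller infarcts are its best known effect. Adenosine, bradykinin and opioids act on receptors of the muscle cells, and kinase pathways that include protein kinase C carry the signal to the mitochondria. The early phase of protection is known not to need new protein, whereas the late phase does. Infarct size was not among the values read here, which are transcript levels at 60 min of reperfusion.

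The comparison asked which transcripts differ in the injured region when short occlusions come first. No transcript passed the main test, while 9 of 21 alternative settings gave 1 to 40 probes. With limma and Benjamini-Hochberg adjustment over all probes at 0.05, 0 of 16459 probes (0%) differed between PreC and IR, and the smallest adjusted p was 0.401. An unadjusted p under 0.05 was reached by 1126 probes (6.84%), with 499 (3.03%) higher in PreC and 627 (3.81%) lower. The split turned with the background correction, to 691 higher and 540 lower with the planned offset of 50 and 350 and 307 with plain subtraction, and was 704 and 1529 with median centring. Chance gives 5% on average. Without PreC replicate 1 the count was 624. Every value is a log2 ratio of PreC over IR. Its direction is likely but could not be settled, because a reversed channel numbering in all files would turn every sign. No file or table used here ties a probe ID to a gene, so no transcript is named by gene, and the cardiac, inflammatory, stress and cell type marker lists were not analysed here. The labelled tissue was for the same reason not checked against heart markers.

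The range of change in PreC was narrow. A probe was called detected on signal in at least 1 channel, so a probe could pass through the PreC channel alone. This required a value over the 95th percentile of the empty spots on at least 5 of the 6 PreC arrays, and 6723 of the tested probes passed. Their median log2 ratio was -0.0019, and the 5th and 95th percentiles were -0.16 and 0.15. The 1st and 99th percentiles were -0.34 and 0.27. The 95% confidence interval of a detected probe had a median reach of 0.14 in log2 units. It lay wholly within 1.5-fold in either direction for 6567 of the 6723, or 97.7%, so for these a larger mean difference lay outside the interval. That share was 86.7% with plain subtraction and 99.7% with an offset of 50. That interval is one of the fit and rests on 3 samples a group.

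The share past the unadjusted threshold was larger among bright probes, a difference that was itself not tested. Among detected probes 608, or 9.04%, had an unadjusted p under 0.05, with 263 higher (3.91%) and 345 lower (5.13%), against 518, or 5.32%, of the undetected probes, with 236 higher (2.42%) and 282 lower (2.9%). In 5 equal classes of mean intensity, from dim to bright, the share was 5.65%, 5.47%, 4.98%, 7.38% and 10.7%. The 3 dimmer classes lay near the chance share and the brightest class was highest. Of the 300 brightest probes 33, or 11%, had an unadjusted p under 0.05, with 18 higher and 15 lower, and 1 was past 1.5-fold. That probe had a mean of 0.999 but stood at 1.25, 1.61 and 0.15 in the 3 replicates, without 1 sign on all 6 arrays. The smallest unadjusted p of the comparison was 2.43e-05, for a probe at -0.34, -0.27 and -0.36 in the 3 replicates and a mean of -0.32 (SE 0.053).

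**Figure D1:**
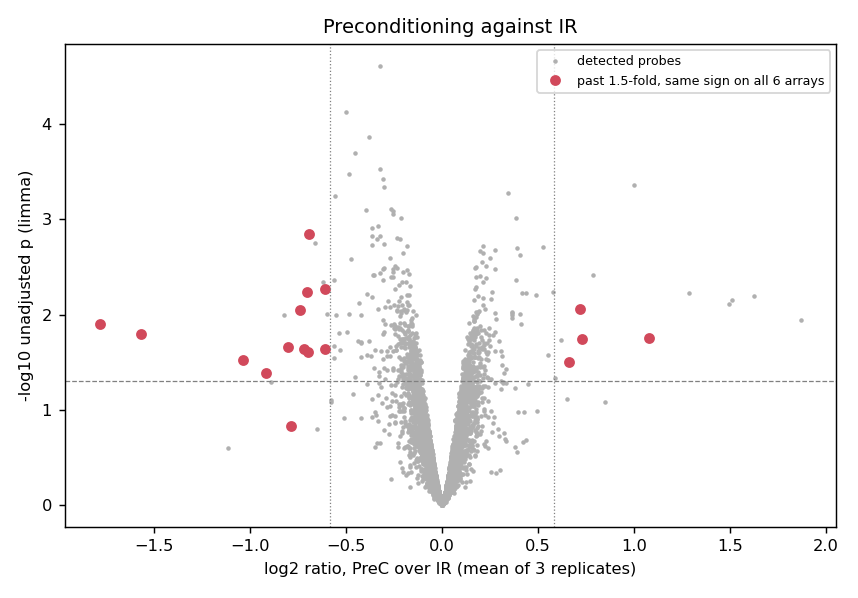
Log2 ratio of PreC over IR (x axis, mean of 3 replicates) against -log10 of the unadjusted limma p (y axis) for the detected probes. Red points are the 13 lower and 4 higher probes past 1.5-fold (dotted lines) with 1 sign on all 6 arrays, and the dashed line is an unadjusted p of 0.05. The widest red points, at -1.78 and 1.08, lie far below the highest grey point, which stands at -0.32.

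Few large differences were shared by all replicates. Of the 6723 detected probes, 187 (2.78%) were higher and 312 (4.64%) lower in PreC on all 6 arrays. Past 1.5-fold in the mean were 15 probes higher (0.223%) and 20 lower (0.297%). When both were required, 4 higher (0.0595%) and 13 lower (0.193%) were left. Over all 16459 probes these counts were 4 (0.0243%) and 14 (0.0851%). The 13 had mean log2 ratios from -1.78 to -0.61, with a median of -0.74, and the 4 ran from 0.66 to 1.08, with a median of 0.73. The other 18 of the 35 large means, 11 higher and 7 lower, did not have 1 sign on all 6 arrays.

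Among detected probes the lowest mean ratio was that of Mm::M200012700. Its log2 ratios were -1.82 and -1.98 in PreC replicate 1, with PreC RNA in Cy5 and in Cy3. They were -1.13 and -1.40 in replicate 2, and -2.12 and -2.24 in replicate 3. All 6 arrays lay below -1, and replicate 2 was the nearest to 0 in both orientations. The mean was -1.78 ± 0.47 (SD, n = 3), which is 3.44-fold lower in PreC. With limma its unadjusted p was 0.0125 and its adjusted p 0.719 (SE 0.62, 95% interval -3.12 to -0.45). Behind these ratios, PreC intensities after background subtraction were 31.2 to 49.8 in replicate 1, 48.0 to 65.4 in replicate 2 and 2.24 to 3.41 in replicate 3. The IR intensities of the same probe, over the 8 arrays of a replicate number, were 131 to 263, 130 to 235 and 25.9 to 46.5. Replicate 3 was therefore the dimmest in both channels, and the PreC signal lay below the IR signal in every replicate.

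Mm::M200012700 is 1 of 12 probes printed on 17 spots, so its ratio was read 17 times on each array. On all 6 PreC arrays 16 of its 17 spots were below 0. The remaining spot was above 0 on all 6, at 0.056 to 0.25. The other 11 probes printed 17 times had mean ratios from -0.14 to 0.16, and 1 of them had an unadjusted p under 0.05. Their median SD between spots was 0.11, with a range of 0.079 to 0.65, so spots of a probe also differed widely among these 11. Their median SD between replicate numbers was 0.094.

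Mm::M200012783 had the next largest difference in the same direction. Its pair ratios, each the mean of both orientations, were -1.90, -1.24 and -1.57 in PreC replicates 1, 2 and 3. The mean was -1.57 ± 0.33 (SD, n = 3), and the adjusted p in limma was 0.719. As for the first probe, replicate 2 lay nearest to 0 and no array crossed it. IR intensities were 21.9 to 44.8, 19.6 to 41.0 and 4.06 to 7.57 in numbers 1, 2 and 3. PreC intensities were 4.68 to 8.58, 9.66 to 11.2 and 0.137 to 0.785. Number 3 again had the dimmest signal of both RNAs, and its PreC signal was so close to nothing that the ratio there depends on the offset. The mean was -0.33 with an offset of 50 and -1.999 with plain subtraction.

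In the other direction Mm::M200000303 stood at 0.88, 1.13 and 1.22 in PreC replicates 1, 2 and 3. The mean was 1.08 ± 0.18 (SD, n = 3), or 2.11-fold higher in PreC, and the adjusted p in limma was 0.719. The largest gap between orientations was in replicate 1, at 0.46 with PreC in Cy5 and 1.30 with PreC in Cy3. IR intensity was 3.25 to 7.18 in number 1, 18.5 to 26.2 in number 2 and 2.48 to 3.30 in number 3. PreC intensity was 9.89 to 14.5, 47.9 to 51.4 and 8.66 to 9.25. Both RNAs were brightest in number 2, where PreC was still above IR by a similar ratio.

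Mm::M200008696 gave 0.74, 0.44 and 1.01 in PreC replicates 1, 2 and 3. Its mean was 0.73 ± 0.28 (SD, n = 3), or 1.66-fold higher in PreC, and the adjusted p in limma was 0.719. IR intensity was 0.0636 to 0.731 in number 1, 4.80 to 9.08 in number 2 and 0.0293 to 0.562 in number 3. In numbers 1 and 3 the IR signal was thus close to nothing after subtraction, so the ratio there depends on the offset added before taking logs. In each of these numbers the probe was detected on 2 PreC arrays and on 0 arrays of PostC, Post30 and NonIschemic, which carried IR RNA too. It therefore likely passed the detection rule there only through the PreC channel, in which it was high.

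**Figure D2:**
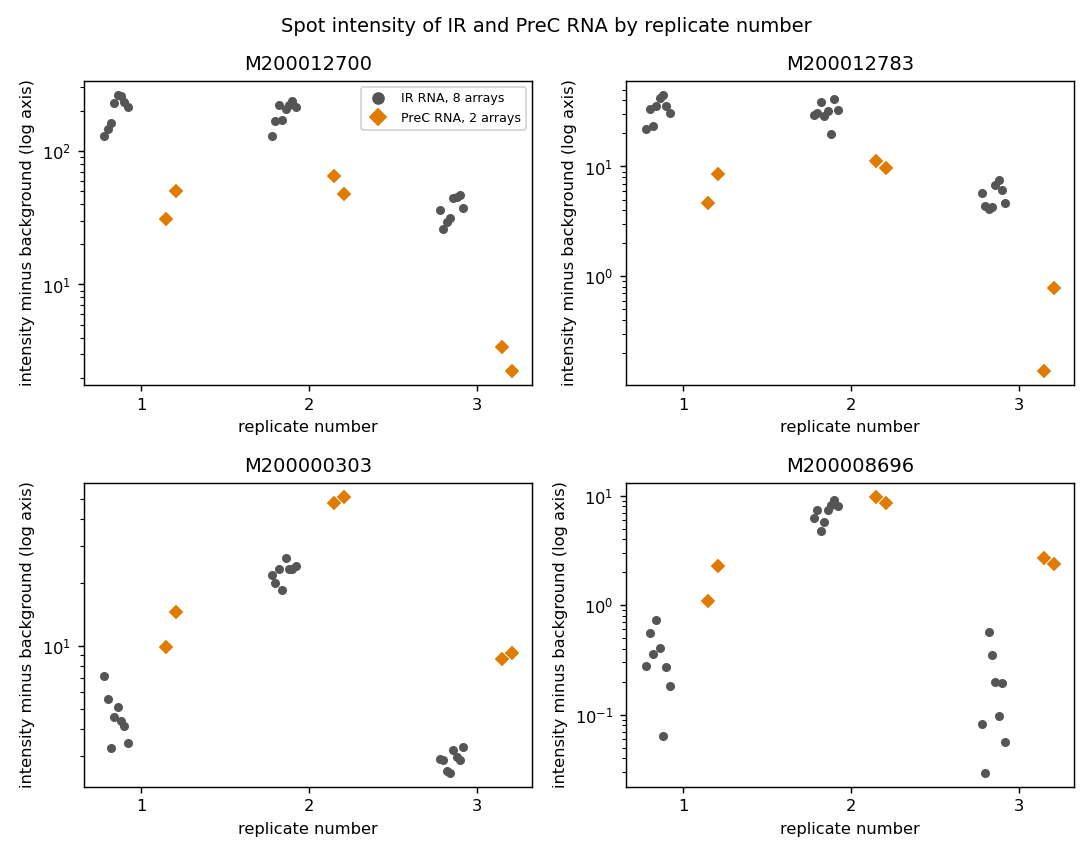
Background-subtracted intensity of the 4 named probes (y axis, log scale, arbitrary scanner units) in the IR and PreC channels by replicate number (x axis). Points are arrays. M200012700 and M200012783 are lower in PreC and M200000303 and M200008696 higher within each number, while the level itself shifts between numbers in both channels.

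The 4 probes were chosen for 1 sign on all PreC arrays, a choice that favours a small SD in PreC and asks nothing of the other groups. Over all detected probes the median SD between numbers was 0.093 in PreC, 0.10 in PostC, 0.095 in Post30 and 0.10 in NonIschemic. The ratios of all groups were taken against the same IR RNA and are therefore set side by side. Mm::M200012700 averaged -0.24 ± 2.04 in PostC, -0.15 ± 1.34 in Post30 and -2.24 ± 1.46 in NonIschemic (SD, n = 3 each). In PostC its replicates were 0.10, -2.43 and 1.61, on both sides of 0. In PreC and NonIschemic all 3 were below 0. For Mm::M200012783 the means were -0.20 ± 1.89 in PostC, -0.11 ± 1.30 in Post30 and -1.86 ± 1.29 in NonIschemic. In each of these groups its replicates kept the order of those of Mm::M200012700, at -0.0041, -2.18 and 1.58 in PostC. The 2 probes may thus show 1 pattern, which was not tested. Mm::M200000303 averaged 0.36 ± 1.09 in PostC, -0.05 ± 1.48 in Post30 and 0.07 ± 0.10 in NonIschemic. In NonIschemic it stayed near 0 in each replicate, at 0.0077, 0.19 and 0.023. Mm::M200008696 averaged 0.20 ± 0.83 in PostC, -0.39 ± 0.88 in Post30 and -0.26 ± 0.20 in NonIschemic.

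That spread enters the test of PreC, since the fit shares 1 estimate of it over the 4 groups. The residual SD in the fit was 1.44 for Mm::M200012700, 1.33 for Mm::M200012783, 0.93 for Mm::M200000303 and 0.63 for Mm::M200008696. Between the PreC replicates alone the SD was 0.47, 0.33, 0.18 and 0.28. With the 3 PreC pairs fitted alone, limma gave adjusted p-values of 0.00159, 0.000776, 0.000776 and 0.0358 for the same means. In that fit 12 probes passed, 5 higher and 7 lower. Over 21 alternative settings the adjusted p ran from 1.39e-26, 2.03e-20, 3.16e-10 and 0.000329 up to 1 for the 4 probes in that order. The lowest of each came with scaling to control probes 1DR to 6DR. The p-values of the PreC pairs alone rest on the small PreC spread for which the probes were in part chosen.

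**Figure D3:**
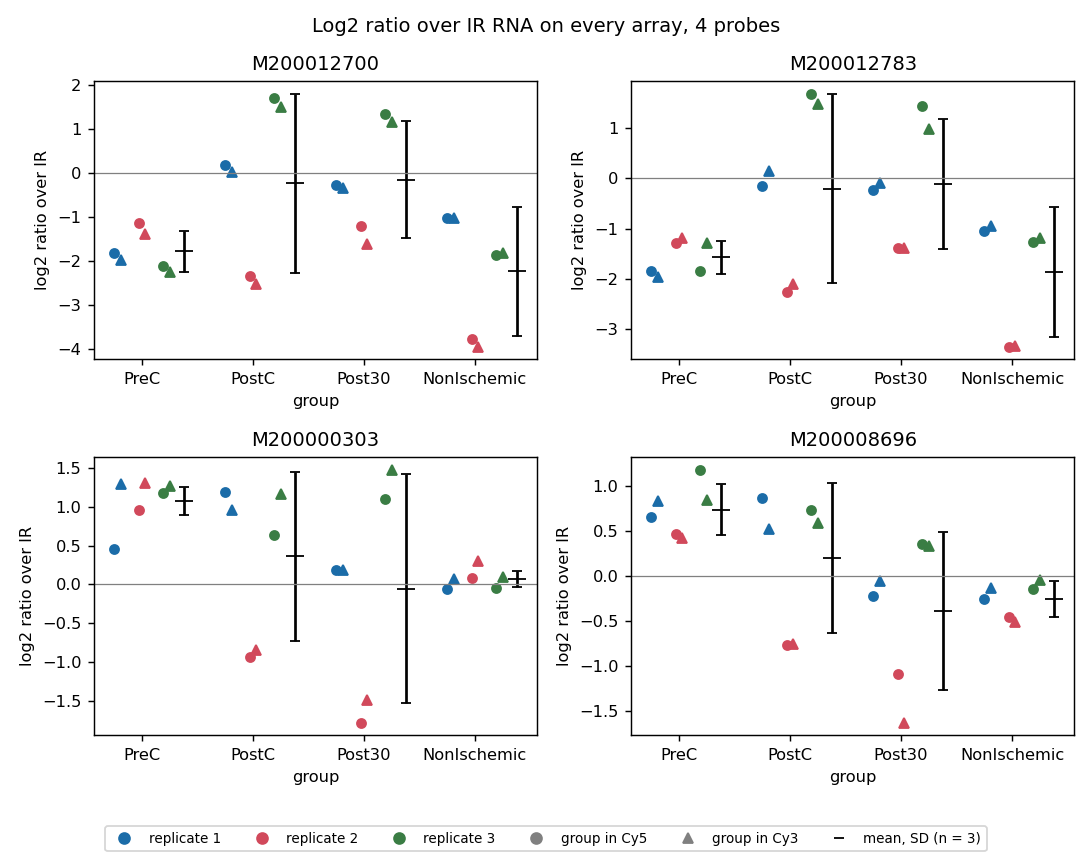
Log2 ratio over IR (y axis) of the 4 named probes on each array by group (x axis). Colours are replicate numbers, circles and triangles the group's RNA in Cy5 and Cy3, and bars the mean ± SD of 3 replicates. In PreC all 6 points of a probe lie on 1 side of 0, as the choice of the probes required, while in PostC, M200012700 runs from replicate means of -2.43 to 1.61.

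Within replicate numbers the IR RNA cancels, and PreC can be set against each other group. The PreC value by which the named probes were chosen enters each difference, so these are descriptions. Mm::M200000303 was higher in PreC than in NonIschemic by 0.870, 0.942 and 1.201. Its differences from PostC, at -0.20, 2.03 and 0.32, and from Post30, at 0.69, 2.77 and -0.07, were of mixed sign. Mm::M200008696 exceeded NonIschemic by 0.94, 0.93 and 1.10, and Post30 by 0.88, 1.80 and 0.67. In numbers 1 and 3, however, it was detected on 0 arrays of NonIschemic and of Post30, so only number 2 compares signals above background. For Mm::M200008696 against Post30 the adjusted p in limma was 0.973 (difference 1.12, SE 0.39). Against PostC, Mm::M200012700 differed by -1.999, 1.168 and -3.796, so number 2 went the other way. Number 2 did so too against Post30, at -1.59, 0.14 and -3.44, and against NonIschemic, at -0.87, 2.60 and -0.34. Mm::M200012783 had the same signs against each group.

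The 17 probes past 1.5-fold on all arrays are set beside the other groups next. The PreC value by which they were chosen enters each difference from another group, so the counts below are descriptions and nothing is read from them. In the 13 lower ones the median group mean was -0.31 in PostC (range -0.85 to 0.52), -0.11 in Post30 (-0.74 to 0.14) and -1.23 in NonIschemic (-2.24 to 0.55). In the 4 higher ones the median was 0.18 in PostC, -0.14 in Post30 and 0.09 in NonIschemic. The medians of all detected probes in the 4 groups were -0.0019 to -0.0050. PreC was lower than Post30 in 3 of 3 numbers for 6 of the 13, where 19% of detected probes were. It was lower than PostC in 3 of 3 for 0 of the 13, where 19.9% were. It was lower than NonIschemic for 2 of the 13 (17.1% of detected probes) and higher for 5 (18.5%). All 4 higher probes exceeded NonIschemic in 3 of 3 numbers, and 3 of the 4 exceeded Post30 (21.1% of detected probes) and 3 PostC (22.7%).

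**Figure D4:**
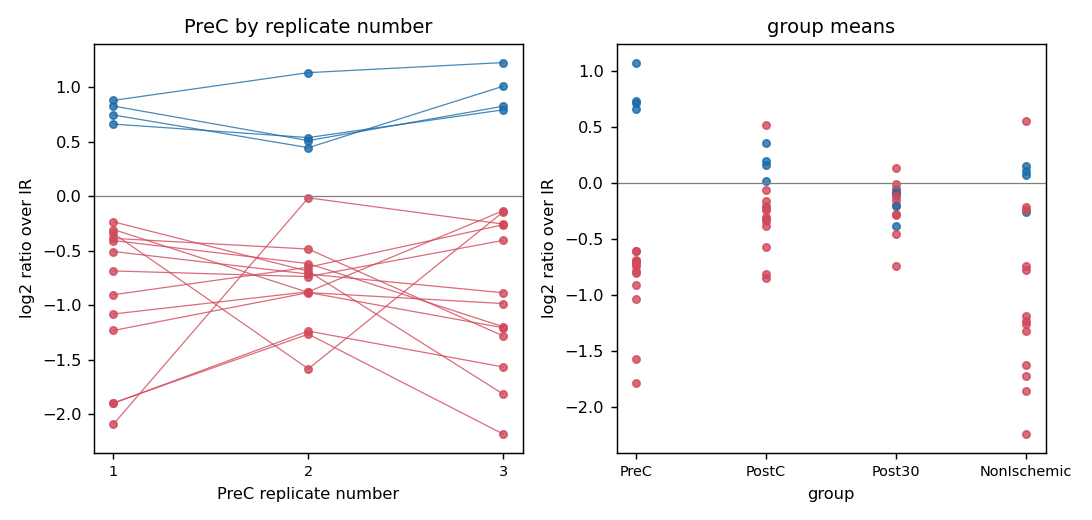
Log2 ratio over IR (y axes) of the 13 lower (red) and 4 higher (blue) probes past 1.5-fold with 1 sign on all PreC arrays. Left, the 3 PreC replicates (x axis), where thin lines join the values of 1 probe and imply no order. Right, the group means (x axis), where the lower set has a median of -0.74 in PreC, -0.31 in PostC, -0.11 in Post30 and -1.23 in NonIschemic.

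The IR RNA was itself uneven for these probes. Over the 3 replicate numbers the normalized log2 IR level of the 13 lower probes ranged by a median of 1.02 (0.38 to 2.06) and that of the 4 higher ones by 1.82 (1.27 to 1.99). For all detected probes the median was 0.19. The range was over 1 in 7 of the 13 and 4 of the 4, and in 70 of 6723 detected probes (1.04%). Between the 8 IR arrays of 1 number the median SD was 0.11 in the 13 and 0.17 in the 4. The level thus differed more between numbers than between arrays of a number. The PreC channel had ranges of like size, with medians of 1.39 and 1.72 against 0.20 for all detected probes. The part of this variation in the ratios was not tested. In tissue RNA a smaller share of a cell type and less RNA per cell cannot be told apart.

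A further set stood high in PreC replicates 1 and 2 and not in 3. Of the detected probes, 49 (0.729%) were past 2-fold in at least 1 replicate pair, 37 of them in 1 replicate, 10 in 2 and 2 in all 3. Of the 10, 7 (0.104% of detected probes) were higher in replicates 1 and 2. These 7, chosen after their values were seen and given with no test, had log2 ratios of 1.25 to 2.91 (median 2.23) in replicate 1. In replicate 2 they ran from 1.05 to 3.14 (median 2.36). In replicate 3 they ran from -0.43 to 0.15 (median -0.17). On the 4 arrays of replicates 1 and 2 all 7 lay between 0.77 and 3.39, so they were high in both dye orientations. The probe with the largest mean of all detected probes, 1.87, belonged to them, at 2.91, 3.14 and -0.43.

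In the other groups these 7 probes were again uneven over the numbers. In PostC they were at 0.45 to 1.95 in replicate 1, 0.17 to 1.61 in replicate 2 and -0.32 to -0.06 in replicate 3. In Post30 replicate 1 had -0.0013 to 3.09, replicate 2 -0.25 to 0.13 and replicate 3 -0.63 to -0.02. The NonIschemic ratios were 0.02 to 0.32, -0.19 to 0.05 and 0.10 to 0.57. High values were thus found in numbers 1 and 2 of PreC and PostC and in number 1 of Post30, and not in number 3 of any conditioning group. Their IR level ranged over the numbers by a median of 0.58 (0.098 to 1.08), and their PreC level by 2.52 (0.47 to 3.06). They were chosen for a ratio that differs between replicates, so the wide PreC range follows from the choice. Which cells or genes these probes stand for was not analysed here, and whether hearts or RNA preparations differed was not tested.

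**Figure D5:**
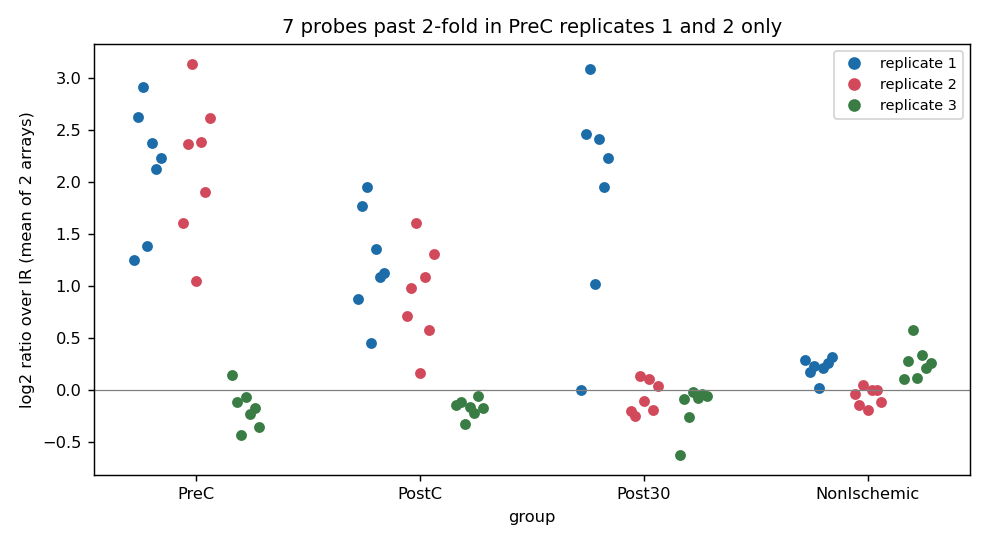
Log2 ratio over IR (y axis, mean of both dye orientations) by group (x axis) for the 7 probes past 2-fold in PreC replicates 1 and 2 only. Each point is a probe and colours are replicate numbers. In PreC the points of replicates 1 and 2 lie between 1.05 and 3.14 and those of replicate 3 between -0.43 and 0.15.

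The replicates were alike only in part. The ratios of both dye orientations correlated over detected probes with r = 0.634 in PreC replicate 1, 0.289 in replicate 2 and 0.321 in replicate 3. Between pairs r was 0.322 for replicates 1 and 2, 0.186 for 1 and 3 and 0.159 for 2 and 3. These are correlations across probes, which are not independent replicates, and the pairs share the array design and normalization. The median SD of a detected probe between replicate numbers was 0.093, and the dye term, the difference between orientations divided by 2, had a median SD of 0.058. With limma, a dye effect passed the adjusted threshold for 8 of 16459 probes (0.0486%), and 2486 of them had an unadjusted p under 0.05. The median absolute dye term was 0.050, against 0.047 for the ratio of PreC over IR. The dye effect was thus about as large as the difference studied, and it cancels in the mean of both orientations. On the PreC arrays 41.6% to 49.5% of mouse spots were detected in the IR channel and 32.7% to 43.9% in the PreC channel.

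PreC was also tested against each other group. With limma, 0 of 16457 probes (0%) differed from PostC (smallest adjusted p 0.564), with 1348 (8.19%) at an unadjusted p under 0.05, 770 (4.68%) higher in PreC and 578 (3.51%) lower. Against Post30 0 of 16457 (0%) differed (smallest adjusted p 0.385), with 768 (4.67%) unadjusted, 407 (2.47%) higher and 361 (2.19%) lower. Against NonIschemic 0 of 16459 (0%) differed (smallest adjusted p 0.756), with 1068 (6.49%) unadjusted, 554 (3.37%) higher and 514 (3.12%) lower. In this fit, which does not use the pairing by number, these tests were less precise than that against IR. The median interval reached 0.19 to either side against 0.13. The replicate numbers link PreC with the other groups through the IR RNA that their ratios share. With the number as a fixed block 0 probes passed against PostC (smallest adjusted p 0.1) and 2, both higher in PreC, against Post30 (smallest adjusted p 0.00206). With the 24 arrays as units and the extract pair as a random block, 20 passed against PostC and 15 against Post30. That fit assumes 1 correlation, 0.19, between the arrays of a pair for all probes. For probes whose dye orientations agree more closely than that, its p-values are too small. The count of probes that differed from PostC and Post30 thus varied with the fit. Over the alternatives the smallest adjusted p ran from 6.74e-14 to 1 for PostC and from 3.13e-15 to 0.66 for Post30, with the lowest of each under control-probe scaling.

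The control probes differed in sign in PreC. Probe 1DR stood at 0.29 and 5DR at -0.23, and the mean of probes 1DR to 6DR was -0.04 ± 0.18 (SD, n = 3; exact two-sided sign-flip test p = 0.75, which cannot go below 0.25). It was 0.75 ± 0.05 in PostC, 0.62 ± 0.10 in Post30 and 0.06 ± 0.38 in NonIschemic. In PreC the probes 1RC and 3RC stood at -1.58 ± 0.17 and -2.73 ± 0.20, and 2RC and 4RC at 1.08 ± 0.15 and 3.50 ± 0.10. What these controls hold was not analysed here.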

How the data were processed

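Intensities of both channels with local backgrounds and a quality mark were deposited for each of 17664 spots per array, per the file headers. The authors' deposited value table holds log2 ratios, by a normalization not given in the sources used here. Against the array files it followed channel 1 over channel 2 (r 0.340 to 0.568), so its sign was turned, and column medians were -0.013 to 0.0083. For PreC against IR the authors' values gave 1420 probes at an unadjusted limma p under 0.05. Loess without background subtraction gave 1422, with near-equal ratios of the named probes, so these settings are nearly 1 alternative. The RNA was amplified and then split between Cy3 and Cy5, per the labels' protocols. The sources used here name no image software.

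Background was corrected with normexp, with the planned offset of 50 scaled to 1.03 because intensities reached only 1356. Global loess within each array followed (limma 3.58.1, R 4.3.3). The 1009 control and empty spots and 6 to 21 marked mouse spots per PreC array had weight 0 or no value. The 16655 mouse spots made 16463 probes. Channel numbering was checked on the background, which was brighter for Cy3 on 24 of 24 arrays. Between groups, arrays of 1 orientation had correlations of -0.029 to 0.656. Both orientations were averaged as 1 replicate. Group means of 12 pairs were fitted with limma, with 8 residual degrees of freedom, and p-values were adjusted over all probes. Same-numbered deviations of PreC correlated with PostC at 0.215 to 0.254, with Post30 at 0.266 to 0.383 and with NonIschemic at 0.0102 to 0.250. The numbers are from the labels. Ratios of the same number share IR RNA, so these correlations cannot show whether the groups' own samples were paired. The fit was tested on simulated data with independent values and the same spread of a probe in every group. That test does not cover a spread that differs between groups or IR RNA shared by the ratios.

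Members, lists and rules were chosen with earlier results of these data known. Named probes were the 2 with the largest ratio in each direction among detected probes with 1 sign on 6 arrays and an unadjusted p under 0.05, which 177 lower and 82 higher probes met. Of the probe IDs 0 were found in the RefSeq gene table for GRCm38.p6.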

Additional observations from a re-analysis of the deposited data

How the results depend on the processing

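Of the alternatives, 5 choices made after seeing the data are the control-probe scaling, the median over spots, leaving a number out of every group, and the 1.5-fold counts with the share of intervals. PreC against IR gave 0 probes under 12 of the 21 alternatives and 1 to 40 under 9. It gave 1 with median centring, 12 with PreC pairs alone, 40 with the replicate number as a fixed replicate block (5 higher, 35 lower), 32 with 24 arrays as units, 4 with Cy5 orientations alone and 37 with scaling to 1DR to 6DR, which moved the median ratio to 0.04. The fixed replicate block leaves the shared deviation in the group means, so its p-values against IR are too small. With 24 arrays as units they are too small for probes whose dye orientations agree more closely than the 1 correlation assumed for all. With the number as a random block 0 probes passed. Leaving out replicates gave 0 to 2 (0 to 4 with a number left out of every group). The unadjusted count was 657 with plain subtraction, 2233 with median centring (704 higher, 1529 lower), 183 with control scaling, 536 over detected probes only and 1753 with Cy3 orientations alone. It was 624 to 1101 without a PreC replicate (570 to 1201 without a number). PreC against PostC gave 1 without background subtraction, 1 in the authors' values, 20 over 24 arrays, 16387 with control scaling and 0 to 1 without a replicate. Against Post30 it was 2 with the fixed block, 15 over 24 arrays, 16192 with control scaling and 0 to 1 (1 to 5 without a number). Against NonIschemic it was 2 with plain subtraction and 21 with control scaling. The 13 lower and 4 higher probes past 1.5-fold became 1 and 0 with an offset of 50, and 26 and 9 with plain subtraction. The 4 higher became 1 with median centring, 7 with control scaling and 9 with Cy5 orientations. Leave-outs gave 15 to 22 lower and 6 to 18 higher. Each of the 4 named probes kept its sign in 21 of 21 alternatives. They were chosen for 1 sign on all 6 PreC arrays, so refits and subsets of the main ratios could not turn it. An offset of 50 shrank them to -0.80, -0.33, 0.28 and 0.06. They passed with control scaling and with PreC pairs alone, and Mm::M200008696 also without number 2. Control scaling subtracts the mean of 1DR to 6DR on an array from every probe. That mean was -0.04 in PreC, 0.75 in PostC and 0.62 in Post30, so the step raised PreC against both. The causes of the other moves were not tested. Signal near the background limits the dim probes.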
